A study of Homo sapiens with 3 samples.

Results

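The DUSP, Sprouty, SPRED and ETV feedback genes are 10 genes chosen by name, *DUSP1*, *DUSP4*, *DUSP5*, *DUSP6*, *SPRY2*, *SPRY4*, *SPRED1*, *SPRED2*, *ETV4* and *ETV5*, out of the 44591 genes of the deposited table. All 10 had 1 entry in the table, and all 10 had a mean of at least 1 RPKM (reads divided by gene length and by the reads of the library) over the 3 libraries, as did 12403 genes in all. The libraries came from Caki-1, an established human clear cell renal carcinoma line, harvested at 48 h. One culture received si-Control, a non-targeting siRNA, one si-RBCK1 #1 and one si-RBCK1 #2, at an siRNA concentration of 10 nM in the general transfection protocol. With 1 library per condition, nothing below could be checked against replicates and no p-value is given, and both si-RBCK1 libraries are compared with the same si-Control library. Values of the siRNAs are kept apart. In bulk RNA, fewer cells expressing a gene and less of its RNA per cell cannot be told apart.

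RBCK1 (HOIL-1) is a ubiquitin ligase subunit of the linear ubiquitin chain assembly complex, and the study asked what its depletion changed in renal cancer cells. When growth factor receptors activate Ras, the kinases RAF, MEK and ERK are switched on in turn, and ERK raises transcription of genes that then damp the same pathway. DUSP proteins are phosphatases that remove the activating phosphates from ERK, JNK or p38, Sprouty proteins act between receptor and RAF, and SPRED proteins bring the Ras inactivator neurofibromin to the membrane. ETV4 and ETV5 are ETS family transcription factors of the PEA3 group whose genes are held down by the repressor CIC until ERK relieves it. Transcripts of these genes are therefore often read as a record of recent ERK activity, although mRNA levels do not measure kinase activity.

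*RBCK1* was at 33.3 RPKM under si-Control, 9.97 under si-RBCK1 #1 and 12.3 under si-RBCK1 #2, that is, at 29.9% and 36.8% of the control level. The siRNA sense strands are shown because every difference below rests on them, with the bases that pair with guide positions 2 to 8, the seed, in capitals:
si-RBCK1 #1: ggtgcaccttcATCAACAa
si-RBCK1 #2: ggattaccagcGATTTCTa
The seed match of si-RBCK1 #1 occurs once in the longest protein-coding transcripts of *DUSP6* and *SPRY4* (GENCODE v29) and in none of the other 8 genes, and that of si-RBCK1 #2 occurs once in *SPRED1* and in none of the other 9. Among 10553 tested protein-coding genes, 23.8% hold a match to the first seed and 29.2% a match to the second. A match is a description of letters and not a site of action.

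The si-Control library was scaled by 36926834 reads, the si-RBCK1 #1 library by 40442939 and the si-RBCK1 #2 library by 36344428, as the steps between low RPKM values show. The values of 9 of the 10 genes gave whole reads, from 198 to 4569 in a library, which are the smallest numbers that the values allow. For these, 95% intervals of each ratio (exact Clopper-Pearson) are given on reads without a pseudocount, and they cover counting error only. Other log2 ratios below add 1 RPKM to each value first, the log2(RPKM + 1) scale, so changes of low genes come out smaller than they are. Of 8 renal epithelial markers, PAX8 (124, 82.5 and 107 RPKM in the order si-Control, si-RBCK1 #1, si-RBCK1 #2), KRT8 and KRT18 were among those above 1 RPKM in all libraries, while PAX2 and CA9, a marker of clear cell carcinoma, stayed at or below 0.064 RPKM. KRT8 was higher in both depleted libraries (65.6, 172 and 238 RPKM), and its part in the results below was not tested. Summed endothelial markers reached at most 0.064 RPKM, and only CD68 of 4 leukocyte markers and COL1A1 of 4 fibroblast markers passed 1 RPKM.

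The feedback genes did not move in 1 direction after RBCK1 depletion. With si-RBCK1 #1, 5 were higher and 5 lower than with si-Control, where 51.5% and 48.4% of all tested genes were, and their median log2 ratio was -0.00089. With si-RBCK1 #2, 3 were higher and 7 lower, against 53.5% and 46.4% of all genes, and the median was -0.13. Over all 12403 tested genes the medians were 0.02 and 0.03. None of the 10 genes differed 2-fold in either library on the log2(RPKM + 1) scale, where 6.18% (si-RBCK1 #1) and 4.76% (si-RBCK1 #2) of all genes did. Without the added 1 RPKM, *ETV4* passed 2-fold with si-RBCK1 #2 (47.9% of the control level). At 1.5-fold, 1 of 10 was lower with si-RBCK1 #1 (*DUSP1* as listed, on the log2(RPKM + 1) scale, where 11.6% of all genes were) and 2 of 10 with si-RBCK1 #2 (*DUSP1* and *ETV4*, where 9.32% of all genes were). With the implied *DUSP1* value, 0 of 10 passed with si-RBCK1 #1. None was 1.5-fold higher on the log2(RPKM + 1) scale, as 12.1% and 11.3% of all genes were, although *SPRY4* was at 161% of its control level with si-RBCK1 #2 without the added 1 RPKM. In either direction 23.7% and 20.6% of all genes passed 1.5-fold. Feedback genes whose counting intervals left out 0 on the same side in each comparison were *DUSP1* (at its implied value), *ETV4* and *ETV5* below si-Control and *SPRY4* and *DUSP6* above it. Both comparisons use the same control library. The share of all tested genes that did so was not counted, so this does not set the feedback genes apart from other genes.

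**Figure D1:**
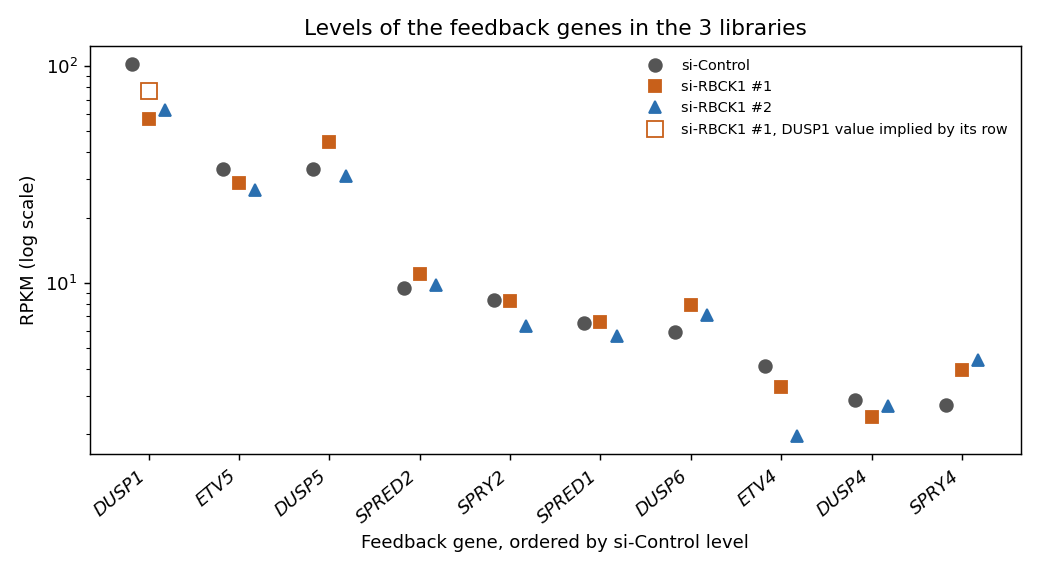
Level of each of the 10 feedback genes in each library, in RPKM on a log axis, with 1 point per library and no error bars because each condition had 1 library. *DUSP1* lay highest at 102 RPKM with si-Control, *ETV5* and *DUSP5* near 33.6 RPKM, and the other genes below 10 RPKM with si-Control, and the open square marks the *DUSP1* value of 76.8 RPKM that its row implies.

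The levels, which RPKM gives per gene length, spread widely among the genes. With si-Control *DUSP1* came first, above 95.8% of tested genes, followed by *ETV5* (33.6 RPKM) and *DUSP5* (33.5 RPKM), whose levels lie close together. *SPRED2* (9.47), *SPRY2* (8.34), *SPRED1* (6.50) and *DUSP6* (5.97) formed a middle group in RPKM, and *ETV4* (4.12), *DUSP4* (2.88) and *SPRY4* (2.75) came last. In the si-RBCK1 libraries *SPRY4* passed *ETV4* and *DUSP4*, and *DUSP5* passed *ETV5*.

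The MAPK phosphatases were the first group. *DUSP1*, on chromosome 5 from 172195093 to 172198203 on the minus strand (hg19, the build in the submitters' processing notes, as for the other positions below), encodes a nuclear phosphatase that acts on p38 and JNK as well as ERK. It is listed at 102 RPKM under si-Control, 56.8 under si-RBCK1 #1 and 62.8 under si-RBCK1 #2, which gives -0.83 and -0.68 as log2 ratios. Both si-RBCK1 entries are below the si-Control entry, but the si-RBCK1 #1 entry carries a caution. The 3 listed entries do not give the fold change in the same row, while the other 9 genes' entries do. The si-Control and si-RBCK1 #2 entries give whole reads at a common length of 2024 nt (7589 and 4620 reads). At the same limit, tighter than that for the other genes, no length up to 50000 nt does so when the si-RBCK1 #1 entry is paired with either.
Of the values that keep the listed decimals, 1 set gave both whole reads and the row's own fold change. It leaves the si-Control and si-RBCK1 #2 entries as listed and puts si-RBCK1 #1 at 76.8 RPKM (6290 reads), a log2 ratio of -0.40 in place of -0.83. On reads, *DUSP1* was then at a log2 ratio of -0.40 (interval -0.45 to -0.35) with si-RBCK1 #1 and -0.69 (interval -0.75 to -0.64) with si-RBCK1 #2, or 75.7% and 61.9% of the control level. The direction is the same with either value, while the size with si-RBCK1 #1 and the order of the si-RBCK1 libraries are not: as listed si-RBCK1 #1 is the lower, and as implied si-RBCK1 #2 is.

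The promoter of *DUSP1*, the highest of these genes and lower with both siRNAs, is set beside those of *DUSP6* and *SPRY4*, which were higher with both. RefSeq sequences (GRCh38.p14, 250 bases before to 50 after the start, minus strand, 5′ to 3′) are given for chr5:172771146-172771445, chr12:89352452-89352751 and chr5:142324198-142324497. Capitals mark matches to a CRE (TGACGTCA) or a TATA box (TATAAA):
DUSP1: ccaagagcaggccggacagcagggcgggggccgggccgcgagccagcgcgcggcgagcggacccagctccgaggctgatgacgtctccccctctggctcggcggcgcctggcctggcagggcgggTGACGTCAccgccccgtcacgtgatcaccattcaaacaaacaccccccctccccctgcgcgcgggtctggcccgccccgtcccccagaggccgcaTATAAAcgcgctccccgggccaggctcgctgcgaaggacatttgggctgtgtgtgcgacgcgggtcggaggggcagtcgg
DUSP6: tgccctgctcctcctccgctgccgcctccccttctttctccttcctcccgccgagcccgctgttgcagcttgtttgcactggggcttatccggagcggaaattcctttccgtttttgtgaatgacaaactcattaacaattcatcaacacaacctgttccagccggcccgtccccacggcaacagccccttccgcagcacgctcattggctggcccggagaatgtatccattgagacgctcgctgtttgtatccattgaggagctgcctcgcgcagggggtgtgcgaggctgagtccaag
SPRY4: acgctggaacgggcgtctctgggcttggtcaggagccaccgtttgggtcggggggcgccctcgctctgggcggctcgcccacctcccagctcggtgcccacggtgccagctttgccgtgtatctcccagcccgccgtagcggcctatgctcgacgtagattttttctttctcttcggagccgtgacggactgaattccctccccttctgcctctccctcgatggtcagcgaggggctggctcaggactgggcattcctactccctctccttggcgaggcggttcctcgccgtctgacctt
Of the 3, only the *DUSP1* promoter holds a full CRE, the site bound by CREB and related factors, starting 125 bases before the start site, and only it holds a TATA box, 30 bases before it. The 3 were picked from 6 searched genes with their values known, and a promoter of *SPRED2* also holds a TATA box. A CRE was found in 1.85% of 35116 promoters of this length and a TATA box in 11.5%. The CRE core TGACG, which the full CRE contains, was found in the *DUSP1* and *SPRY4* promoters and in 24.6% of all. The search covered both strands. The AP-1 site TGACTCA (4.95% of all promoters), the ETS site CCGGAAG (10.3%) and the CArG box (1.29%) were not found in these 3 windows. Neither were the CIC octamer forms TGAATGAA (1.65%) and TGAATGGA (1.03%). Other forms of the CIC octamer were not searched for, so these windows may hold them.

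*DUSP5* (chromosome 10 from 112257625 to 112271302, plus strand), a nuclear phosphatase specific for ERK, was at 33.5 RPKM under si-Control, 44.7 under si-RBCK1 #1 and 31.1 under si-RBCK1 #2. Only the si-RBCK1 #1 library stood above the control. On 3131, 4569 and 2858 reads, the log2 ratios were 0.41 (interval 0.35 to 0.48) and -0.11 (interval -0.18 to -0.035), so the directions were opposite beyond counting error. The direct ratio of si-RBCK1 #2 to si-RBCK1 #1 was -0.52 (interval -0.59 to -0.45).

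*DUSP6* (chromosome 12 from 89741602 to 89746636, minus strand), the cytoplasmic phosphatase for ERK and a common transcript measure of ERK output, was at 5.97 RPKM under si-Control, 7.89 under si-RBCK1 #1 and 7.08 under si-RBCK1 #2. Both depleted libraries lay above the control, by less than 1.5-fold. On 748, 1083 and 874 reads, the log2 ratios were 0.40 (interval 0.27 to 0.54) and 0.25 (interval 0.11 to 0.39). Of all tested genes, 23.8% were at least as far up with si-RBCK1 #1 and 34.3% with si-RBCK1 #2.

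*DUSP4* (chromosome 8 from 29190579 to 29208267, minus strand), a nuclear phosphatase for ERK, JNK and p38, was at 2.88 RPKM under si-Control, 2.42 under si-RBCK1 #1 and 2.71 under si-RBCK1 #2. The 3 levels lie close together. On 782, 717 and 722 reads, the log2 ratios were -0.26 (interval -0.40 to -0.11) and -0.09 (interval -0.24 to 0.056), the second not distinguishable from 0 at this depth.

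Summed by class, the nuclear inducible phosphatases (*DUSP1*, *DUSP2*, *DUSP4* and *DUSP5*) came to 138 RPKM under si-Control, 104 under si-RBCK1 #1 (124 with the implied *DUSP1* value) and 96.9 under si-RBCK1 #2. *DUSP1* made up 73.4% of this sum with si-Control and 64.8% with si-RBCK1 #2. The cytoplasmic ERK phosphatases (*DUSP6*, *DUSP7* and *DUSP9*) differed the other way, from 9.40 RPKM to 14.1 RPKM and 13.9 RPKM. In this sum *DUSP9*, named after its values were seen and under the filter, counted 18, 70 and 100 reads (0.187, 0.665 and 1.06 RPKM). The phosphatases that prefer JNK and p38 (*DUSP8*, *DUSP10* and *DUSP16*) summed to 16.4, 17.1 and 15.9 RPKM. Within this sum *DUSP8* was at 64.2% and 73.3% of its control level and *DUSP10*, named after its values were seen, at 153% and 121% (4.72, 7.21 and 5.70 RPKM). These sums have no error estimate beyond counting, and the classes were drawn up with the values known.

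**Figure D2:**
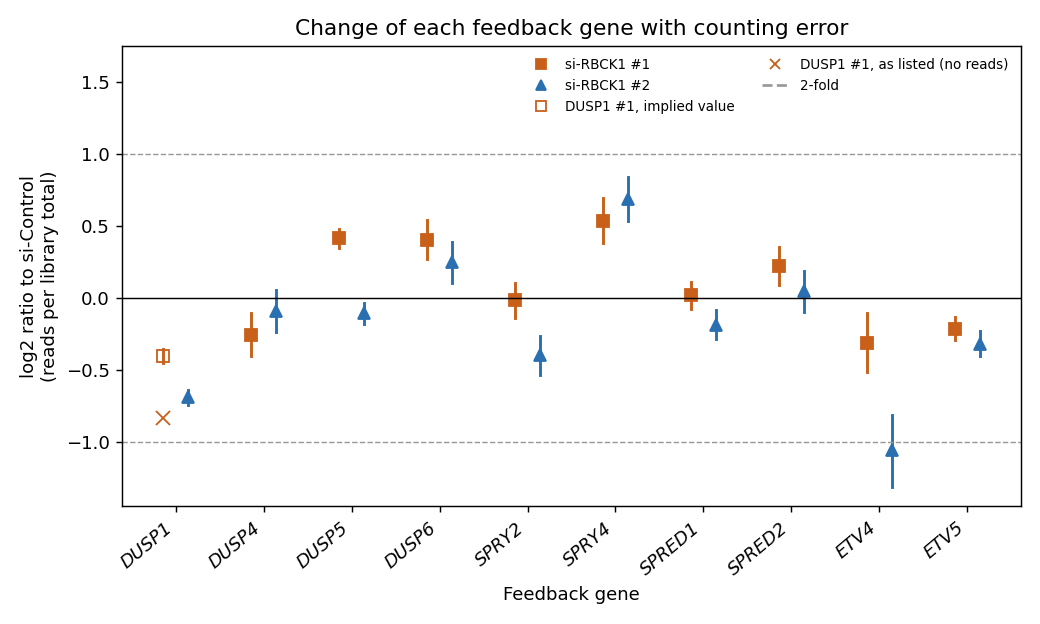
log2 ratio of each feedback gene over si-Control, from reads divided by the reads each library was scaled by, for si-RBCK1 #1 (squares) and si-RBCK1 #2 (triangles), with vertical lines for the 95% counting intervals and dashed lines at 2-fold. *SPRY4* and *DUSP6* lie above 0 and *DUSP1*, *ETV4* and *ETV5* below 0 with both siRNAs, *DUSP5* lies on opposite sides, and the *DUSP1* value for si-RBCK1 #1 is drawn as implied (open square, -0.40) and as listed (cross, without reads).

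Among the Sprouty genes, *SPRY4* (chromosome 5 from 141689992 to 141704620, minus strand), an inhibitor of receptor signalling to Ras and RAF, was at 2.75 RPKM under si-Control, 3.98 under si-RBCK1 #1 and 4.42 under si-RBCK1 #2. Both depleted libraries stood above the control, and no other feedback gene was as far up. On 561, 891 and 889 reads, the log2 ratios were 0.54 (interval 0.38 to 0.69) and 0.69 (interval 0.53 to 0.84), or 0.41 and 0.53 on the log2(RPKM + 1) scale. Of all tested genes, 20.1% and 13.5% were at least as far up in the same libraries.
The lncRNA *SPRY4-IT1*, which overlaps *SPRY4* on the same strand, was at 0.231, 0.950 and 1.29 RPKM in the same order, from 6, 27 and 33 reads. How reads shared by overlapping genes were counted is not given in the sources used here.

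*SPRY2* (chromosome 13 from 80910111 to 80915250, minus strand), which binds the ubiquitin ligase CBL and the adaptor GRB2, was at 8.34 RPKM under si-Control, 8.23 under si-RBCK1 #1 and 6.32 under si-RBCK1 #2. Only the si-RBCK1 #2 library stood apart. On 1063, 1149 and 793 reads, the log2 ratios were -0.02 (interval -0.14 to 0.10) and -0.40 (interval -0.53 to -0.27). The 4 Sprouty genes together came to 12.6, 13.9 and 12.7 RPKM, with *SPRY4* higher and *SPRY2* lower in the si-RBCK1 #2 library.

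The SPRED genes lay close to the control. *SPRED1* (chromosome 15 from 38545052 to 38649450, plus strand), the neurofibromin partner mutated in Legius syndrome, was at 6.50 RPKM under si-Control, 6.58 under si-RBCK1 #1 and 5.70 under si-RBCK1 #2. On 1741, 1930 and 1503 reads, the log2 ratios were 0.02 (interval -0.077 to 0.11) and -0.19 (interval -0.29 to -0.089). The first of these was -0.03 on the log2(RPKM + 1) scale when the libraries were scaled to equal totals.
*SPRED2* (chromosome 2 from 65537985 to 65659656, minus strand), its relative with the same membrane-binding and Ras pathway role, was at 9.47 RPKM under si-Control, 11.03 under si-RBCK1 #1 and 9.76 under si-RBCK1 #2. On 813, 1037 and 825 reads, the log2 ratios were 0.22 (interval 0.086 to 0.35) and 0.04 (interval -0.097 to 0.19). The second was -0.0061 on the log2(RPKM + 1) scale with libraries scaled to equal medians. Neither gene reached a 1.5-fold difference.

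The PEA3 genes *ETV4* and *ETV5* were lower in both depleted libraries. *ETV4* (chromosome 17 from 41605211 to 41623800, minus strand) was at 4.12 RPKM under si-Control, 3.31 under si-RBCK1 #1 and 1.97 under si-RBCK1 #2. The si-RBCK1 #2 library was the lowest by a wide margin. On 420, 370 and 198 reads, the log2 ratios were -0.31 (interval -0.52 to -0.11) and -1.06 (interval -1.31 to -0.81), or 80.4% and 47.9% of the control level. On the log2(RPKM + 1) scale they were -0.25 and -0.78, and 4.72% of all tested genes were at least as far down with si-RBCK1 #2. *ETV4* overlaps *DHX8* on the opposite strand, which was at 9.87, 12.004 and 11.6 RPKM. Whether the reads were counted by strand is not given in the sources used here.
*ETV5* (chromosome 3 from 185764106 to 185826901, minus strand), at 33.6 RPKM under si-Control, 28.9 under si-RBCK1 #1 and 26.9 under si-RBCK1 #2, made up 83.6% of the summed *ETV1*, *ETV4* and *ETV5* level with si-Control. Both depleted libraries were below the control. On 2544, 2400 and 2007 reads, its log2 ratios were -0.22 (interval -0.30 to -0.13) and -0.32 (interval -0.40 to -0.23). The summed level of the 3 PEA3 genes was 40.2, 35.2 and 31.2 RPKM. In this sum *ETV1*, named after its values were seen, was at 2.45, 2.97 and 2.28 RPKM. On reads, the log2 ratios of *ETV1* were 0.28 (interval 0.14 to 0.42) with si-RBCK1 #1 and -0.10 (interval -0.26 to 0.056) with si-RBCK1 #2.

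**Figure D3:**
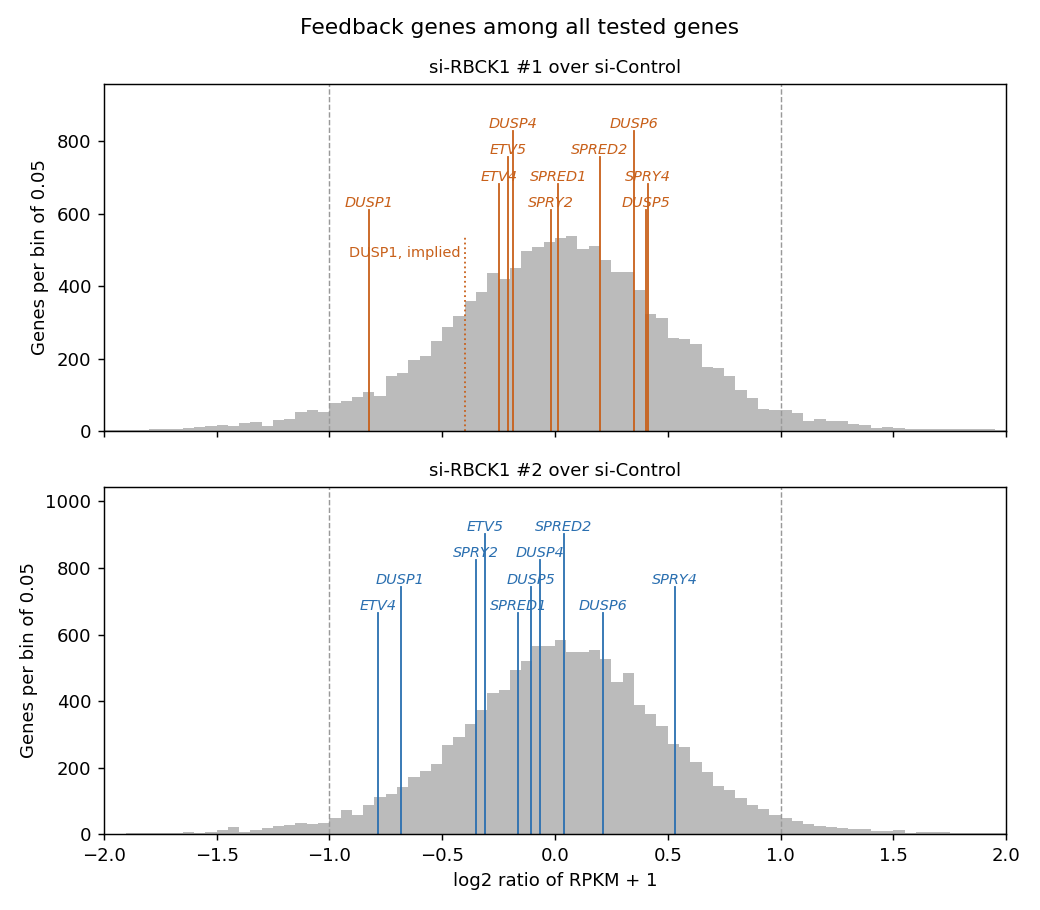
Histograms of the log2 ratio of RPKM + 1 over si-Control for the 12403 tested genes in bins of 0.05 (grey), with si-RBCK1 #1 above and si-RBCK1 #2 below, with a line for each of the 10 feedback genes and dashed lines at 2-fold. Genes beyond the ends of the axis are not drawn. All 10 lie inside the 2-fold lines in each panel, and *DUSP1* with si-RBCK1 #1 is drawn as listed (-0.83) and as implied (-0.40, dotted).

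Set directly against each other, and with *DUSP1* at its implied value, the si-RBCK1 #2 library was lower than the si-RBCK1 #1 library in 8 of the 10 genes, with *ETV4* furthest (log2 ratio -0.75, interval -1.004 to -0.50), and in *DUSP4* (0.16, interval 0.013 to 0.32) and *SPRY4* (0.15, interval 0.015 to 0.29) it was higher. Of all tested genes, 48.2% were lower with si-RBCK1 #2 than with si-RBCK1 #1. Counting intervals do not cover differences between cultures, and siRNA and culture cannot be told apart here.

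The other genes of these families were mixed as well. Of 10 listed, 7 passed 1 RPKM, and the medians were 0.06 with si-RBCK1 #1 and -0.04 with si-RBCK1 #2. *DUSP7*, a cytoplasmic ERK phosphatase, was furthest up (3.25, 5.56 and 5.74 RPKM, log2 ratios of 0.63 and 0.67), and *DUSP8*, which prefers JNK and p38, furthest down (4.30, 2.76 and 3.15 RPKM, log2 ratios of -0.50 and -0.35). *DUSP16* was at 7.34, 7.17 and 7.09 RPKM. *DUSP2*, *DUSP9* and *SPRY3* did not pass.

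The core of the cascade did not shift as a group. The 13 genes from *HRAS* to *MAPK3* and their scaffolds had medians of 0.01 and 0.02, with 7 higher and 6 lower with each siRNA, where 51.5% and 53.5% of all tested genes were higher. *HRAS* was furthest up (19.9, 38.03 and 33.6 RPKM, log2 ratios of 0.90 and 0.73), and *SHOC2*, a scaffold that promotes RAF activation, furthest down (18.5, 13.9 and 10.2 RPKM, log2 ratios of -0.39 and -0.80). *YWHAB*, a 14-3-3 protein that binds RAF, had the highest control level at 132 RPKM.

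The list of adaptors and Ras GAPs, the proteins that switch Ras off, also holds *SOS1*, *SOS2*, *PTPN11* and *CBL*, all lower with both siRNAs. Of its 12 genes, 9 were lower with si-RBCK1 #1 and 8 with si-RBCK1 #2, where 48.4% and 46.4% of all tested genes were. The list had medians of -0.33 and -0.27. The adaptors *GRB2* (log2 ratios of 0.31 and 0.30) and *FRS2* (0.66 and 0.48), named after their values were seen, were higher. *GAB1* was at -0.03 and 0.07. The GAPs *RASA1*, *RASA2*, *RASAL2* and *NF1* were lower with both siRNAs. *RASA1*, which encodes the Ras GAP p120, was furthest down (25.5, 13.4 and 14.4 RPKM, log2 ratios of -0.88 and -0.78), and *SHC1*, an adaptor that carries the signal from receptors to GRB2, was furthest up (92.1, 186 and 151 RPKM, log2 ratios of 1.002 and 0.70). *NF1*, whose product neurofibromin is the SPRED partner, was at 16.1, 10.6 and 11.9 RPKM, and was named after its values were seen.

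Other transcripts that ERK raises spread in both directions. Of 12 listed, 10 could be used, since *EPHA4* was under 1 RPKM and the si-Control entry of *EGR1* is not a number. The medians were -0.09 with si-RBCK1 #1 (5 higher, 5 lower) and -0.17 with si-RBCK1 #2 (2 higher, 8 lower), where 48.4% and 46.4% of all tested genes were lower. *PHLDA1* was at 139, 91.0 and 55.8 RPKM (log2 ratios of -0.61 and -1.31), and *SPHK1*, sphingosine kinase, at 23.1, 45.5 and 35.96 RPKM (log2 ratios of 0.95 and 0.61). *HMGA1* had the highest control level at 849 RPKM, with log2 ratios of -0.28 and -0.38.
*IER3* and *CCND1*, which encodes cyclin D1, carry the same caution as *DUSP1*. *IER3* is listed at 687, 310 and 335 RPKM, and 510 RPKM is implied with si-RBCK1 #1, which changes the log2 ratio from -1.14 to -0.43 and leaves -1.04 with si-RBCK1 #2. *CCND1* is listed at 39.2, 98.5 and 88.9 RPKM, and 58.5 and 48.9 RPKM are implied for the si-RBCK1 libraries, which changes the log2 ratios from 1.31 and 1.16 to 0.57 and 0.31. The directions stayed the same.

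Regulators of the PEA3 factors differed in direction. *CIC*, the repressor of *ETV4* and *ETV5*, was at 7.54, 13.6 and 15.9 RPKM (log2 ratios of 0.77 and 0.98). *ATXN1*, which encodes a CIC-binding partner, was at 4.57, 2.27 and 2.27 RPKM (log2 ratios of -0.77 and -0.77). Its relative *ATXN1L*, named after its values were seen, was higher, at 9.72, 15.7 and 13.8 RPKM (log2 ratios of 0.64 and 0.46). *DDB1*, part of the ubiquitin ligase that destroys ETV proteins, had the highest control level and was at 85.7, 130 and 112 RPKM. The medians of the 7 genes were 0.05 and -0.01.

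Of 12 growth factor receptors, 7 passed 1 RPKM, with medians of -0.32 and -0.12, and 0 of 7 differed 1.5-fold, where 23.7% and 20.6% of all tested genes did. *MET*, the receptor for hepatocyte growth factor, had the highest control level (144, 112 and 109 RPKM), *FGFR1* was by mean ratio furthest down (20.8, 15.5 and 14.5 RPKM) and *ERBB2* furthest up (9.57, 12.1 and 13.7 RPKM). JNK and p38, on which DUSP1 and DUSP4 also act, and the kinases that activate JNK and p38 had medians of 0.05 and -0.02 over 9 genes. In these, *MAP2K3*, an activator of p38, was furthest up (17.8, 29.7 and 25.9 RPKM) and *MAP2K6* furthest down (1.77, 1.18 and 0.851 RPKM).

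For *DUSP1* as listed, the feedback gene with the largest change by the smaller of its log2 ratios, the protein-coding genes with the nearest pair of ratios were *CIRBP*, *BBX* and *BEX4*, at distances of 0.0059, 0.013 and 0.019 on the log2 scale, over 2 ratios from 3 libraries. In all, 77 genes lay within 0.1. With the implied value the smaller ratio of *DUSP1* (-0.398 with si-RBCK1 #1) was below that of *SPRY4* (0.411 with si-RBCK1 #1) in size, so *SPRY4* would come first. The genes nearest to *DUSP1* were then *RBM11*, *FAM135A* and *RAB8B*. For *SPRY4*, the next in the order as listed, the nearest were *SRSF6*, *ASB8* and *FAM213B*, with 221 genes within 0.1. For *ETV4* they were *EREG*, *TFPI2* and *MXD1*, with 15 genes within 0.1.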

How the data were processed

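RNA from 3 Caki-1 cultures, depleted of ribosomal RNA, was sequenced as paired ends after directional library preparation, per the labels. The authors deposited 1 table with an RPKM value per gene and library. The submitters' processing notes name FastQC, Trimmomatic, TopHat2, HTSeq and hg19, and usable versions and the annotation are not given in the sources used here. The deposited table also holds the authors' mean RPKM of both si-RBCK1 libraries, their log2 fold change, p-values and q-values. The log2 fold change was used only to check whether a gene's entries give it (within 1e-06), and p- and q-values were not used.

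Log2 ratios were taken of the deposited RPKM after adding 1 RPKM, and genes averaging under 1 RPKM over the libraries were left out. No test was run, with 1 library per condition. Library totals were found from RNAs of up to 200 nt, and reads from the shortest length of up to 50000 nt that gave whole reads (within 0.001) in all libraries. Implied values kept the listed decimals and were sought with a looser limit on whole reads, and pairs of *DUSP1* entries with a tighter one. The 10 genes, the gene lists and the rule for named genes (all 10, and in each list the furthest up and down by mean log2 ratio, those at least 1.5-fold changed the same way with both siRNAs, and the highest in si-Control) were chosen with earlier results of these data known. Alternatives were pseudocounts of 0.1 and 5 RPKM, equal medians or totals, dropping the filter or raising it to 5 RPKM, implied values, and, for shares of all genes, protein-coding genes only. One renal marker is not reported here. Steps were tested on simulated data. The tools were scipy 1.17.1, pandas 2.3.3 and numpy 2.4.6, with matplotlib 3.10.9 for plots, in Python 3.11.15.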

Additional observations from a re-analysis of the deposited data

Results flagged for a closer look

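Among the feedback genes, *DUSP5* was flagged because its directions were opposite. Its log2 ratio of reads was 0.41 with si-RBCK1 #1 and -0.11 with si-RBCK1 #2. Each counting interval leaves out 0. The share of all tested genes with such a pattern was not counted. The difference between the siRNAs was not tested over cultures, since each condition had 1 library.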

How the results depend on the processing

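No paired analysis was possible because the groups compared hold a single library each and so share fewer than 2 replicate numbers. Of 100 log2 ratios of single feedback genes under the alternatives, 95 moved by less than the arm of the gene's counting interval (from its middle to its end, with implied reads for *DUSP1*) and 5 by more, and no ratio whose interval leaves out 0 changed sign. The 5 were *DUSP1* with si-RBCK1 #1 (-0.882 with equal totals, -0.398 with implied values) and, with a pseudocount of 5 RPKM, *SPRY4* (0.214 and 0.283) and *ETV4* with si-RBCK1 #2 (-0.387). Genes past a fold limit with both siRNAs were not counted, since the comparisons share the control. Beyond the construction of each alternative (fewer or more genes, a larger or smaller pseudocount), the cause was not tested.

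Among the feedback genes, 1 changed 2-fold with si-RBCK1 #2 at a pseudocount of 0.1 RPKM (*ETV4*, in place of 0) and 3 changed 1.5-fold (in place of 2), and 1.5-fold changes fell to 0 with si-RBCK1 #1 with implied values and to 1 with si-RBCK1 #2 at 5 RPKM or with a mean of at least 5 RPKM. The median with si-RBCK1 #1 was 0.0151 with a mean of at least 5 RPKM. For the other lists, numbers are genes changed 1.5-fold or median log2 ratios. With a pseudocount of 0.1 RPKM, the other family members had 3 changed with si-RBCK1 #1. With 5 RPKM they had 0 and 0, the adaptors and GAPs 2 (median -0.210) with si-RBCK1 #1, JNK and p38 kinases 0 with si-RBCK1 #2, and PEA3 regulators 0 and 1. With equal totals, the other family members had 0, the adaptors and GAPs 7 and the ERK output genes a median of -0.146, all with si-RBCK1 #1, and with equal medians the ERK output median with si-RBCK1 #2 was -0.224. With no filter, the ERK output median with si-RBCK1 #1 turned to 0.00142, the receptor median was -0.0918 and the other family members had 2 changed with si-RBCK1 #2. With a mean of at least 5 RPKM, the other family members had 0 and 0 (median 0.246 with si-RBCK1 #1), medians with si-RBCK1 #1 were -0.221 for adaptors and GAPs and 0.188 for JNK and p38 kinases, and the PEA3 regulators had medians of 0.596 and 0.387 and 1 changed with si-RBCK1 #2. With implied values, 2 ERK output genes changed with si-RBCK1 #1. Depth limited *ETV4* most, at 198 reads.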

Other observations

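The antisense gene that overlaps *DUSP1* (ENSG00000253736.1) was at 0.385, 0.0702 and 0.0782 RPKM, from 5, 1 and 1 reads, and the antisense gene within *ETV5* (ENSG00000234197.1) was at 0.0967, 0.309 and 0.344 RPKM, from 2, 7 and 7 reads. Promoters of 6 of the 10 feedback genes were searched, and *DUSP4*, *DUSP5*, *ETV4* and *ETV5* were not among them. *SPRED2* has a promoter with an AP-1 site starting 6 bases and a TATA box starting 31 bases before its start site.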
